A study of Homo sapiens with 2 samples.

Results

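The genes described here encode the protein subunits of the mitochondrial ribosome, the machine inside mitochondria that translates the mRNAs of the mitochondrial genome. They were taken as every row of the count table whose symbol is MRPL or MRPS followed by a number and, in some, a letter from A to C, with pseudogenes left out. This gave 77 of 54261 features, 48 with an MRPL symbol (large subunit) and 29 with an MRPS symbol (small subunit). Of these, 74 had a CPM (reads scaled to library size, as described under the processing) of 1 or more in at least 1 library and are called measured, as were 12925 features of the whole table.

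The study set side by side the transcriptomes of RKO, a colorectal carcinoma cell line of human origin, after transfection with siRNA against HNRNPM (labelled HNRNPM knockdown, here siHNRNPM) or with siNC, the control siRNA (labelled WT, here control). HNRNPM encodes an RNA-binding protein of pre-mRNA splicing. There was 1 RNA-seq library for each group, from total RNA, so no difference below has a replicate check and no p-value is given. Neither the sequence of the siRNAs nor the time of harvest is given in the sources used here. In libraries made from whole cultures, fewer cells of a kind and less RNA per cell cannot be told apart.

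Reads in genes numbered 13056118 in the siHNRNPM library and 19931360 in the control library. HNRNPM itself had 1042 reads (79.6 CPM) in the siHNRNPM library, against 2870 reads (144 CPM) in the control library, a log2 ratio of -0.86 (-0.96 to -0.76), so its direction goes with the labels. Among 8 colorectal epithelial markers, EPCAM, KRT8, KRT18 and CDX2 were measured, at levels of 8.10 to 34.4 CPM (siHNRNPM) and 9.003 to 31.8 CPM (control), with EPCAM called higher (log2 ratio 0.36, 0.04 to 0.68) and CDX2 called lower (-0.40, -0.75 to -0.05) by the rule given below, while KRT19, CDH1, VIL1 and KRT20 had 0 or 1 read in the siHNRNPM library and 0 to 10 in the control library. Of 10 markers of blood cells, fibroblasts and endothelium, 7 had 0 to 2 reads in each library, and CD3E, DCN and HBB had 0 in both. The others were CD68, with 885 and 765 CPM in the siHNRNPM and control libraries, COL1A1 with 21 and 13 reads, and COL1A2 with 14 and 8 reads. COL1A1 and COL1A2, both fibroblast collagen genes, were called higher, with log2 ratios of 1.30 (0.23 to 2.42) and 1.41 (0.06 to 2.87). With CD68 they summed to 887 CPM (siHNRNPM) and 766 CPM (control), nearly all of it from CD68. The part of these 3 genes in the results was not tested.

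Mitochondrial ribosomes make the few membrane proteins of the respiratory chain and ATP synthase that the mitochondrial genome encodes. Their rRNAs come from that genome, but all their proteins are encoded in the nucleus, made in the cytosol and imported. One set of these proteins has homologues in bacterial ribosomes, and the other set is specific to mitochondria. The small subunit reads the mRNA and the large subunit joins amino acids and guides the new chain to the inner membrane, so the products of both gene sets are needed together.

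Most mitochondrial ribosomal protein genes differed little between the libraries. The median log2 ratio of the 74 measured genes, siHNRNPM over control, was 0.12, with quartiles of -0.05 and 0.23. Over all 12925 measured features the median was -0.01, with quartiles of -0.21 and 0.18. Ratios ran from -0.79 for MRPL42 to 0.62 for MRPS34, and 51 of the 74 (68.9%) lay above 0, as did 48.2% of all measured features. A gene is called higher or lower here when its log2 ratio was 0.32 or more from 0 and its 95% counting interval excluded a ratio of 1. By that rule 8 members were higher and 2 were lower. These are 10.8% and 2.70% of the 74, and the rule called 10.5% of all measured features higher and 12.2% lower. The share of members called higher was thus near the background. The rule called 8.80% of protein-coding features higher and 12.7% lower. Among protein-coding features within the members' CPM range the shares were 8.63% and 13.1%. No member differed by 2-fold, a size that 2.45% of all measured features reached upward and 1.49% downward.

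Their middle spread was slightly narrower than that of other genes, with quartiles of -0.05 and 0.23, against -0.20 and 0.14 over the 8703 protein-coding features within the same CPM range. The SD of the log2 ratios was 0.22 for the members and 0.42 for those features, whose ratios reach -7.85 and 10.24. The root mean square of the SDs that read counting alone would give was 0.09 for the members and 0.12 for those features. Counting intervals lay above a ratio of 1 for 26 of the 74 members, against 22.0% of all measured features. They lay below it for 8 of the 74, against 26.1% of all measured features, and spanned it for 40.

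Summed over the 74 measured members, the siHNRNPM library held 49979 reads (3819 CPM) and the control library 73543 reads (3699 CPM). The sum was 1.03-fold higher in the siHNRNPM library, with a counting interval of 1.02 to 1.04. All 77 together took 0.383% of the reads in the siHNRNPM library (exact Clopper-Pearson 95% interval 0.380% to 0.386%) and 0.369% in the control library (0.366% to 0.372%). These intervals do not overlap, but they cover counting error only.

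**Figure D1:**
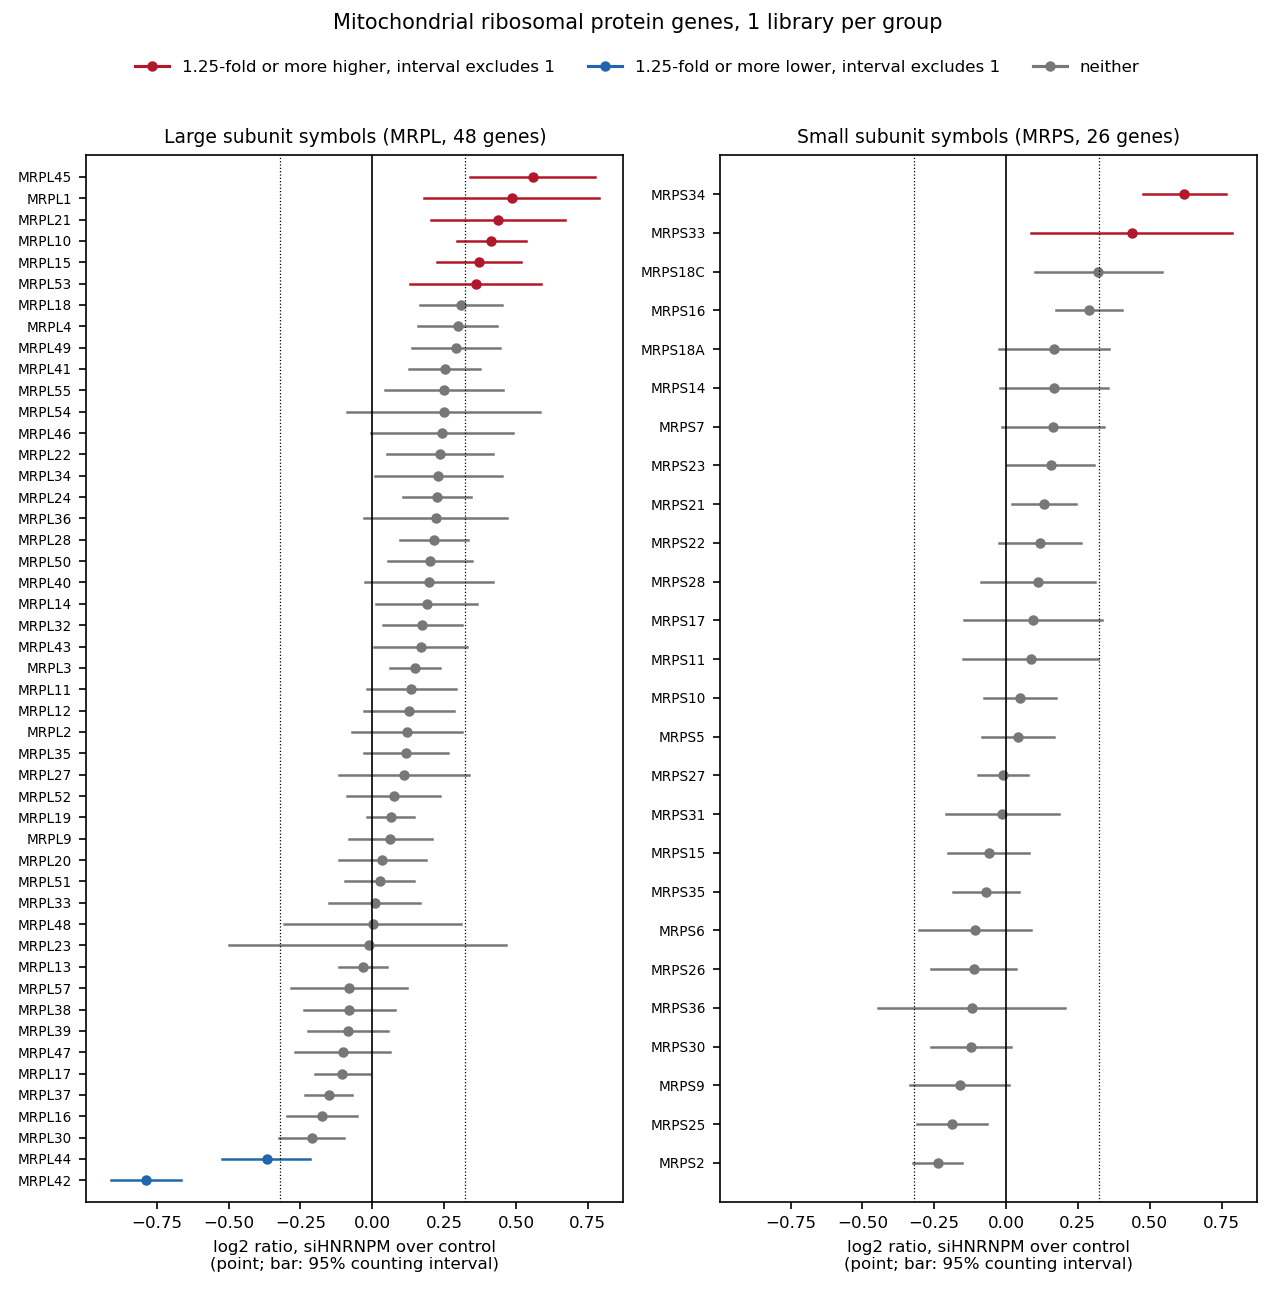
Log2 ratio of each measured mitochondrial ribosomal protein gene, siHNRNPM over control, with its 95% counting interval as a bar, for 48 MRPL genes (left) and 26 MRPS genes (right). Dotted lines mark the thresholds of 0.32 and -0.32. Most points lie right of 0 in the large subunit panel, and MRPL42 at -0.79 and MRPS34 at 0.62 stand at the ends.

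The large subunit had the higher ratios of the 2 by median. Across 48 MRPL genes the median log2 ratio was 0.14 (quartiles 0.00 and 0.24), 36 lay above 0, 6 were called higher and 2 lower. Across 26 MRPS genes the median was 0.07 (quartiles -0.10 and 0.16), 15 lay above 0, 2 were called higher and 0 lower. Of the 48 MRPL genes 12.5% were called higher and 4.17% lower, and of the 26 MRPS genes 7.69% and 0.0%. Against these stand 10.5% of all measured features called higher and 12.2% called lower. Intervals lay above a ratio of 1 for 20 of the 48 MRPL and 6 of the 26 MRPS genes, against 22.0% of all measured features. The difference of the medians was 0.07, less than the SD within either set (0.23 for MRPL and 0.20 for MRPS). The sign of the MRPS values depends on which genes are counted: over the 8 measured MRPS genes with no pseudogene of their symbol in the table, the median was -0.06 and the summed log2 ratio -0.03.

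In summed reads the MRPL genes held 32715 reads in the siHNRNPM library and 47783 in the control library, a fold of 1.04 (1.03 to 1.06). The MRPS genes held 17264 and 25760 reads in the same order, a fold of 1.02 (0.999 to 1.04), which spans 1. MRPL42, the gene with the lowest ratio, weighs on the large subunit sum: without it the MRPL fold was 1.06 (1.05 to 1.08). As a share of all reads in the 77 genes, the MRPS symbols took 34.6% in the siHNRNPM library (34.1% to 34.97%) and 35.0% in the control library (34.7% to 35.4%). Those intervals overlap, but this rests on MRPL42. Without that gene the share was 35.1% in the siHNRNPM library (34.65% to 35.5%) and 36.0% in the control library (35.64% to 36.3%), and over members with no pseudogene of their symbol it was 27.3% (26.7% to 27.8%) and 28.8% (28.4% to 29.3%), so in both cases the intervals did not overlap. Both subsets were chosen with the values known, and variation between cultures was not measured.

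**Figure D2:**
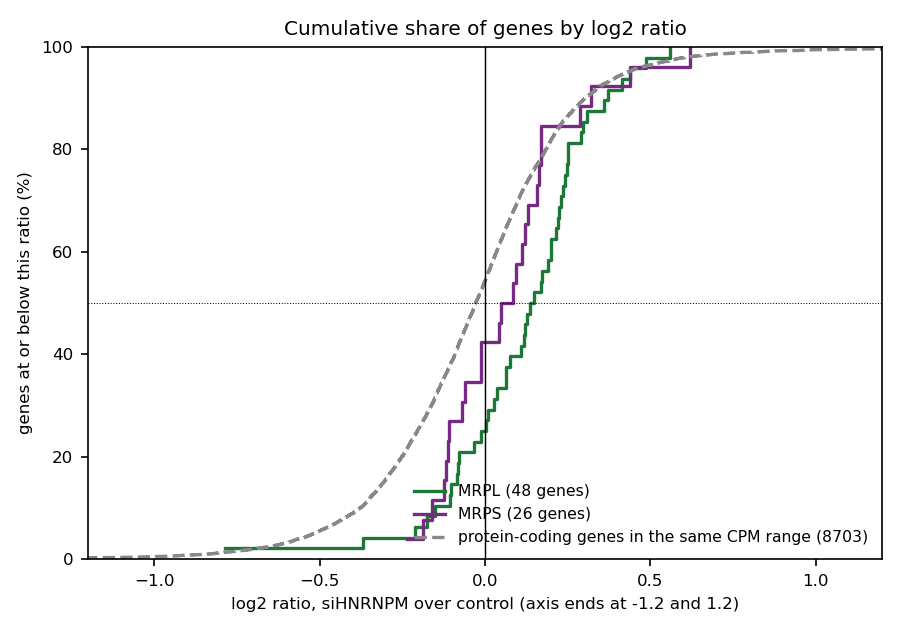
Cumulative share of genes (percent) by log2 ratio, siHNRNPM over control, for MRPL (48), MRPS (26) and protein-coding genes in the same CPM range (8703). The MRPL curve crosses 50% at 0.14, the MRPS curve at 0.07 and the curve of the other genes at -0.03.

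Symbols do not always match a protein's place in the ribosome. MRPS30 (mL65) and MRPS18A (mL66) sit in the large subunit despite their names, and MRPS36 is not a structural protein of the human mitochondrial ribosome but a part of the 2-oxoglutarate dehydrogenase complex. MRPS30 had 682 reads in the siHNRNPM library and 1128 in the control library (log2 ratio -0.12, -0.26 to 0.02). MRPS18A had 395 and 534 reads (0.17, -0.02 to 0.36), and MRPS36 had 128 and 211 (-0.12, -0.45 to 0.21). All 3 intervals spanned a ratio of 1. Moved to their structural places, they left the large subunit median at 0.14 over 50 genes and put the small subunit median at 0.09 over 23.

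Large subunit genes were also split by whether their proteins have bacterial homologues, as a description without a test. MRPS18A, a relative of bacterial S18 whose name mL66 marks it as mitochondrial, was counted with the homologues. The 31 large subunit genes with bacterial homologues had a median log2 ratio of 0.15, with 4 called higher and 0 lower, and their summed reads were 1.07-fold higher in the siHNRNPM library (1.06 to 1.09). The 19 large subunit genes specific to mitochondria had a median of 0.07, with 2 called higher and 2 lower, and a summed fold of 0.972 (0.949 to 0.995). For both sets the background was 10.5% of all measured features called higher and 12.2% lower. The gap between these medians depends on single genes. Without MRPL42 the mitochondria-specific genes had a median of 0.12 and a summed fold of 1.02 (0.996 to 1.05), so the direction of the sum rests on that gene too. With MRPS18A moved to the mitochondria-specific genes the medians were 0.12 over 20 of these and 0.14 over 30 homologues. In the small subunit the medians were 0.09 over 14 genes with bacterial homologues and -0.01 over 9 without.

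MRPS34, a mitochondria-specific small subunit protein whose loss is known to impair mitochondrial translation, had 790 reads (60.4 CPM) in the siHNRNPM library, against 781 reads (39.3 CPM) in the control library. Its log2 ratio of 0.62 (0.48 to 0.76) was the highest of the measured members. The gene has 3 exons in its annotated transcript and lies on chromosome 16 from 1771890 to 1773155, minus strand (GRCh38, GENCODE 29). MRPS33, another mitochondria-specific small subunit protein, was also called higher, from 131 and 147 reads in the siHNRNPM and control libraries (0.44, 0.09 to 0.79), and its interval is wide. Of the small subunit genes below the threshold, MRPS18C (bS18m) had 310 and 377 reads (0.32, 0.10 to 0.54) and MRPS16 (bS16m, an rRNA-binding protein) had 1120 and 1394 (0.29, 0.17 to 0.40). MRPS18C missed the threshold by less than 0.01 and shares 40.2% of its exon bases with FAM175A on the other strand. MRPS23 had 622 and 848 reads (0.16) and MRPS21 had 1119 and 1552 (0.13), both with intervals above 0.

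Of the large subunit genes, MRPL45 had the highest ratio. Its protein lies at the exit of the peptide tunnel and helps to hold the ribosome at the inner membrane. It had 346 reads (26.4 CPM) in the siHNRNPM library, against 357 reads (17.9 CPM) in the control library, a log2 ratio of 0.56 (0.34 to 0.78). GENCODE lists a copy of MRPL45 outside the primary assembly, and its pseudogene MRPL45P2 had 97 and 84 reads in the siHNRNPM and control libraries, so reads could have been split between copies. The gene lies on chromosome 17 from 38297023 to 38323218, plus strand.

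Of the proteins that form the mobile stalks of the large subunit, MRPL10 (uL10m), the base on which the stalk protein MRPL12 sits, had 1059 reads (80.9 CPM) in the siHNRNPM library and 1207 reads (60.7 CPM) in the control library. Its log2 ratio was 0.41 (0.29 to 0.53). MRPL1 (uL1m), at the stalk near the tRNA exit site, had 176 and 191 reads in the siHNRNPM and control libraries (0.49, 0.18 to 0.79). MRPL53, also of the MRPL10 and MRPL12 side, was called higher from 293 and 347 reads (0.36, 0.13 to 0.59). It falls outside the rule for named genes and is given to complete the calls. MRPL53 shares 45.2% of its exon bases with CCDC142 on the same strand, a gene with 40 and 83 reads. MRPL12 itself, which contacts the elongation factors, had 584 and 812 reads (0.13, -0.03 to 0.28), with an interval that spans 0.

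The other genes called higher encode rRNA-binding proteins of the large subunit core. MRPL21 (bL21m) had 288 and 323 reads in the siHNRNPM and control libraries (0.44, 0.20 to 0.67), and MRPL15 (uL15m) had 702 and 824 (0.37, 0.22 to 0.52). Just below the threshold were MRPL18 (uL18m, in the central protuberance) at 0.31, MRPL4 (uL4m, by the exit tunnel) at 0.30 and MRPL49 (mL49) at 0.29. Each of those 3 had an interval above 0, from 626 to 773 reads in the siHNRNPM library and 777 to 956 in the control library.

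MRPL42 had the lowest ratio of the measured members. It encodes a mitochondria-specific large subunit protein once assigned to the small subunit. The gene had 746 reads (57.0 CPM) in the siHNRNPM library, against 1955 reads (98.3 CPM) in the control library, a log2 ratio of -0.79 (-0.91 to -0.66). This is close to the value of HNRNPM itself. MRPL42 lies on chromosome 12 from 93467488 to 93516213, plus strand, and 6 pseudogenes carrying its symbol in the table had 0 reads in the siHNRNPM library and 0 or 1 in the control library. MRPL44, a protein with an RNase III-like fold, was the other gene called lower, with 529 reads (40.4 CPM) in the siHNRNPM library and 1037 reads (52.2 CPM) in the control library (-0.37, -0.52 to -0.22). It lies on chromosome 2 from 223957404 to 223967714, plus strand.

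Another 6 members had intervals below a ratio of 1 but fell short of the threshold. MRPS2 (uS2m) had 1758 reads in the siHNRNPM library and 3148 in the control library (-0.24, -0.32 to -0.15), and MRPS25 (mS25) had 876 and 1515 (-0.19, -0.31 to -0.07). In the large subunit MRPL30 (uL30m) had 999 and 1756 reads (-0.21), MRPL16 (uL16m, near the peptidyl transferase centre) 873 and 1497 (-0.17), MRPL37 (mL37) 1913 and 3228 (-0.15) and MRPL17 (bL17m) 1429 and 2335 (-0.11). The lower-ratio genes were thus well counted, each with at least 529 reads in either library.

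Not measured were 3 members. MRPS12 (uS12m, at the decoding site) had 7 reads in the siHNRNPM library and 4 in the control library, and MRPS18B and MRPS24 had 0 reads in both, which (at 3 counts) allows a level of up to 0.229 CPM in siHNRNPM cells and 0.151 CPM in control cells. The 10 protein-coding genes nearest to MRPS18B on chromosome 6, HLA-E to NRM, also had 0 to 3 reads, and GENCODE lists copies of MRPS18B and of all 10 outside the primary assembly. MRPS12 also has such a copy, as have its neighbours SARS2 (6 and 9 reads) and SIRT2 (12 and 7 reads), while 4 genes close by have none, of which ACP7 (963 and 920 reads) and PAK4 (598 and 948) were well counted and FBXO27 (0 and 0) and NCCRP1 (0 and 1) were not. Over the whole table, 51.7% of 1050 protein-coding genes with such a copy had no read in either library, against 25.6% of 18307 without one. MRPS24 has no such copy, but 85.7% of its annotated transcript is shared with the readthrough gene URGCP-MRPS24 on the same strand (0 and 0 reads), and its neighbour URGCP had 415 and 539 reads. How reads with several matching places were counted is not given in the sources used here, so these zeros do not show that the genes were silent.

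Levels per length put the members in order within a library. Per kilobase of annotated transcript the 74 genes ran from 2.36 to 135 CPM per kb in the siHNRNPM library (median 30.3) and from 1.74 to 138 CPM per kb in the control library (median 29.6). MRPL13 (uL13m) stood first and MRPL37 second in both libraries, with 135 and 98.6 CPM per kb in the siHNRNPM library and 138 and 110 CPM per kb in the control library. MRPS33 stood last in both, with 2.36 CPM per kb in the siHNRNPM library and 1.74 in the control library. The subunits had like medians on this scale, 30.9 (siHNRNPM) and 31.4 (control) CPM per kb for MRPL, and 29.7 (siHNRNPM) and 28.0 (control) for MRPS.

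The annotated length matters to some of these levels. MRPL42's annotated transcript is 15582 bases long with a coding length of 426, and its other coding transcripts are at most 1983 bases. Per coding kilobase MRPL42 had 134 CPM in siHNRNPM cells, against 231 CPM in control cells, which ranks it 11 and 3 from the top. On that scale MRPS21 (bS21m) stood first with 328 and 299 CPM per coding kb in the siHNRNPM and control libraries, and MRPL13 stood second with 275 and 281. The lowest were MRPL23 (62 and 95 reads), with 10.3 and 10.4 CPM per coding kb, and MRPL1, with 13.8 and 9.85. MRPS33, last per kilobase of transcript, has an annotated transcript of 4241 bases with a coding length of 318. It had 31.5 and 23.25 CPM per coding kb in the siHNRNPM and control libraries, ranks 66 and 67 from the top.

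Among the members, lower ratios went weakly with higher CPM. Across the 74 genes Pearson's r between the log2 ratio and log2 mean CPM was -0.32 (Spearman's rho -0.33), against -0.02 (-0.02) across 11010 protein-coding genes. With log2 transcript length r was -0.31 (rho -0.18) across the members and -0.14 (-0.21) across the protein-coding genes. By subunit, r with transcript length was -0.445 (rho -0.219) for MRPL and 0.086 (rho 0.08) for MRPS. MRPL42 has both the lowest ratio and the longest annotated transcript of the members (15582 bases), and r was not recomputed without it. By rank the MRPL value was near that of the protein-coding genes (rho -0.212). These correlations are across genes of the same 2 libraries, which are not independent replicates. The 4 most highly counted MRPL genes, MRPL37, MRPL13, MRPL19 and MRPL3, had log2 ratios of -0.15, -0.03, 0.06 and 0.15, and the 4 such MRPS genes, MRPS2, MRPS27, MRPS35 and MRPS21, had -0.24, -0.01, -0.07 and 0.13.

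**Figure D3:**
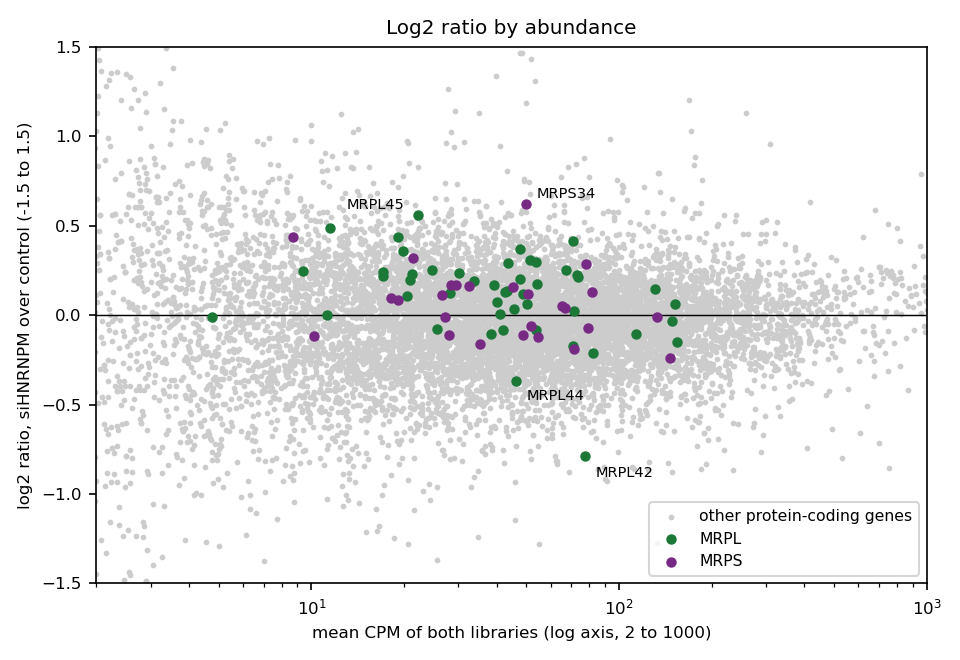
Log2 ratio, siHNRNPM over control, against the mean CPM of both libraries (log axis) for MRPL genes (green), MRPS genes (purple) and other protein-coding genes (grey), 1 point per gene (axes end at the values printed on them). Members lie between -0.79 (MRPL42) and 0.62 (MRPS34).

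The promoters of mitochondrial ribosomal protein genes shared short sequence motifs. Nuclear genes for mitochondria are known to be bound by NRF1, by ETS factors such as GABPA, and by YY1. RefSeq windows (GRCh38.p14) from 250 bases before to 50 after the start were at hand for 68 of the 77 genes, and were searched on both strands for GCATGCG (the core of the NRF1 motif), CCGGAAG (ETS) and AAGATGG (YY1). The ETS and YY1 motifs can overlap in the letters AAG. At least 1 of the 3 was found for 46 genes (67.6%), against 36.4% of 9156 measured protein-coding genes and 21.5% of 27305 genes of all kinds. An ETS match was found for 29 genes (42.6%), against 23.7% and 12.2% of those 2 sets. A YY1 match was found for 24 (35.3%), against 9.95% and 7.11%, and an NRF1 match for 7 (10.3%), against 8.26% and 4.74%. MRPL and MRPS genes had like shares, 41.5% and 44.4% for ETS and 36.6% and 33.3% for YY1. The MRPS genes here include MRPS12, MRPS18B and MRPS24, which were not measured and each had a YY1 match. Among measured members 21 had a YY1 match and 44 had none. A match describes the letters in the window and does not show binding.

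Windows of 4 genes show how these motifs sit. MRPS34 (chr16:1773085-1773384, minus strand) is given for the highest ratio and for its 3 ETS matches, and MRPL42 (chr12:93467264-93467563, plus strand) for the lowest ratio. MRPL46 (chr15:88467339-88467638, minus strand) is given since it starts back to back with MRPS11, and MRPL52 (chr14:22829637-22829936, plus strand) since it holds all 3 motifs. Capitals mark the matches, with CTTCCGG the ETS motif read on the other strand.
MRPS34: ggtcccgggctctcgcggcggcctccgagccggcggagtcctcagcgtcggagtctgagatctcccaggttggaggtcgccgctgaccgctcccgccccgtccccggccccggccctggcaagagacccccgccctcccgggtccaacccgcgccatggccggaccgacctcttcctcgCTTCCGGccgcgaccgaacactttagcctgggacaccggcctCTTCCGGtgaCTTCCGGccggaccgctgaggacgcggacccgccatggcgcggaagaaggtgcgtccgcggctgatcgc
MRPL42: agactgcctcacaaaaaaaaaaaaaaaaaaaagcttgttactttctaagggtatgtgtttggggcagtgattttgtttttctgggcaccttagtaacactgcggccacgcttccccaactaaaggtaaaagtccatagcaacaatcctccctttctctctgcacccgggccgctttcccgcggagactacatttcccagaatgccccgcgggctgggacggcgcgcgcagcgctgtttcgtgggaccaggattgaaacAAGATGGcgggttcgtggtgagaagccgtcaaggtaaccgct
MRPL46: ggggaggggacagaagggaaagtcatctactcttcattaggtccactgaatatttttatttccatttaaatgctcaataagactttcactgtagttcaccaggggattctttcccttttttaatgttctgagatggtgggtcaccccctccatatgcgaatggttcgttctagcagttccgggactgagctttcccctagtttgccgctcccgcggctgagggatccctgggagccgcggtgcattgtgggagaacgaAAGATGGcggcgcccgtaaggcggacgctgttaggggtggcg
MRPL52: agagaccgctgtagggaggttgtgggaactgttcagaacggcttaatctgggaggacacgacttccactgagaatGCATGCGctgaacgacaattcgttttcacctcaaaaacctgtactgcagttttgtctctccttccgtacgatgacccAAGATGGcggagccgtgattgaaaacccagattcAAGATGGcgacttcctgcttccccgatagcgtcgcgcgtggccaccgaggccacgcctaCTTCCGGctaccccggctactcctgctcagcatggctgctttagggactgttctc

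Motifs in these windows went with little difference in ratio. Measured members with an ETS match had a median log2 ratio of 0.13 and those without 0.09, over 28 and 37 genes. The medians were 0.16 and 0.10 with and without a YY1 match (21 and 44 genes), and 0.12 in both cases for NRF1 (6 and 59 genes). MRPS34, MRPL46 and MRPL52 had log2 ratios of 0.62, 0.24 and 0.07.

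**Figure D4:**
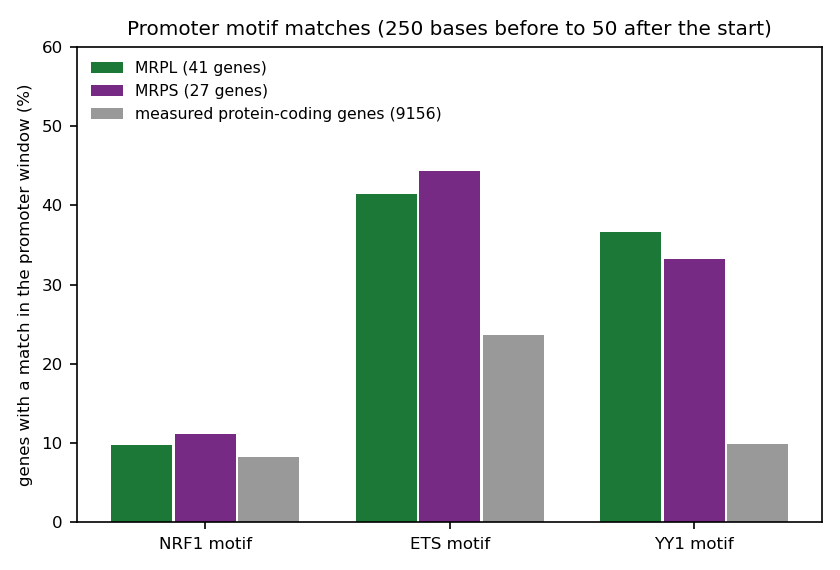
Share of genes (percent) with at least 1 match to the NRF1, ETS and YY1 motifs in the promoter window, for MRPL (41 genes), MRPS (27) and measured protein-coding genes (9156). YY1 matches are found for 36.6% of MRPL and 33.3% of MRPS genes, against 9.95% of measured protein-coding genes. The MRPS genes include MRPS12, MRPS18B and MRPS24, which were not measured.

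Many members start close to a gene on the other strand. Pairs with a protein-coding partner, starts within 1000 bases and both genes measured numbered 20, and in 12 of them the log2 ratios had the same sign. The members' median was 0.19 and the partners' 0.06. The examples that follow were chosen after their values were seen. MRPL49 (0.29) and FAU (0.27), which encodes a cytosolic ribosomal protein, had like values, as did MRPL36 (0.22) and NDUFS6 (0.24), a complex I subunit gene. MRPL49 shares 9.16% of its exon bases with FAU on the other strand. FAU had 3264 and 4112 reads in the siHNRNPM and control libraries, against 626 and 777 for MRPL49. Strand use in counting is not given, and the part of shared reads in these like values was not tested. MRPL46 and MRPS11, both members, had 0.24 (-0.01 to 0.49) and 0.09 (-0.15 to 0.32), and MRPL30 and its partner MITD1 had -0.21 and -0.29. MRPS34 went the other way from its partner EME2, an endonuclease subunit gene whose annotated start lies 52 bases away, with 37 and 92 reads in the siHNRNPM and control libraries (-0.71, -1.30 to -0.15).

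An earlier analysis of these same libraries picked out the 7-base sequence GTGAGAA in 3′ UTRs as one that went with lower ratios, so what follows is no independent support for it. Among the 74 measured members 5 (6.76%) have it in their annotated 3′ UTR, against 12.8% of 11010 measured protein-coding genes. The sites are shown since MRPL42, the lowest member, has 3 of them, of which the first is printed. Capitals mark the 7 bases.
MRPL42: ttgtgaatGTGAGAAtattttga
MRPL30: taaagatgGTGAGAAagtgtttt
MRPL17: ttcagaatGTGAGAAgctgggag
MRPL51: aaaagttgGTGAGAAtgttattg
MRPS33: ggaaaatgGTGAGAAaggggttt
MRPL42, MRPL30 and MRPL17 lay below 0 (-0.79, -0.21 and -0.11), while MRPL51 lay at 0.03 and MRPS33 at 0.44, so the sequence did not go with 1 direction in this family. The median was -0.11 over the 5 members with it and 0.12 over those without, against -0.16 and -0.01 over protein-coding genes with and without it. The first site of MRPL42 lies 4423 bases into its 3′ UTR, the 3 are held by 1 of its 5 coding transcripts, and gene counts do not show which transcripts these cells make.

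Other structural proteins of the mitochondrial ribosome, which carry other symbols, differed little. Of 8 on the list, 0 were called higher and 0 lower, 1 interval (DAP3) excluded a ratio of 1, and the median log2 ratio was 0.03. The same rule called 10.5% of all measured features higher and 12.2% lower. MRPL57 stands on this list too. DAP3, the GTP-binding protein of the small subunit, had 2016 reads in the siHNRNPM library and 2831 in the control library (0.11, 0.03 to 0.20). PTCD3 had 1912 and 2907 (0.00), and the insertase OXA1L, to which the ribosome docks, had 2193 and 3269 (0.03).

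Of 25 measured factors for ribosome assembly and rRNA modification, 6 were called higher and 2 lower, with a median of 0.18. Over all measured features, 10.5% were called higher and 12.2% lower. RCC1L, an assembly factor, had 781 and 795 reads in the siHNRNPM and control libraries (0.58, 0.43 to 0.72), and YBEY, of a conserved family of rRNA-processing proteins, had 244 and 249 (0.57, 0.31 to 0.83). The pseudouridine synthases RPUSD4 (0.49) and TRUB2 (0.44) were higher too. The 2 called lower, chosen after their values were seen, were METTL15 (-0.39), a methyltransferase of the small subunit rRNA, and MALSU1 (-0.36), an assembly factor of the large subunit.

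Of 15 translation factors 2 were called higher and 2 lower, with a median of 0.08. These counts stand beside 10.5% of all measured features called higher and 12.2% called lower. MTRF1L, a release factor, had 186 reads in the siHNRNPM library and 535 in the control library (-0.92, -1.17 to -0.68), and the initiation factor MTIF3 had 437 and 839 (-0.34). The elongation factor TSFM (0.34) and the formyltransferase MTFMT (0.34) were higher.

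Of 8 measured factors for transcription and upkeep of the mitochondrial genome 2 were called higher, TOP1MT (0.43) and SSBP1 (0.42), and 0 lower, with a median of 0.05. For this list and the mRNAs below, the background was 10.5% of all measured features called higher and 12.2% lower. SSBP1 has a copy outside the primary assembly. The mitochondrial RNA polymerase POLRMT had 0.12 and the packaging protein TFAM -0.23. Of the 13 mRNAs that mitochondrial ribosomes translate 3 were called higher, ND6 (0.46), ND1 (0.42) and ND3 (0.37), and 0 lower, with a median of 0.13 and a summed fold of 1.03 (1.02 to 1.03). The rRNAs had few reads, RNR1 15 and 41 and RNR2 64 and 125 in the siHNRNPM and control libraries, and both intervals spanned a ratio of 1. Their sum did not, with a fold of 0.723 (0.546 to 0.951). The mRNA COX1 had 179449 and 278651 reads in the same libraries. Counts as low as those of RNR1 and RNR2 do not show the level of mitochondrial rRNA in the cells. The part of library preparation in them was not tested.

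Among 11 measured regulators of nuclear genes for mitochondria 2 were called higher and 1 lower, with a median of 0.02. Of all measured features 10.5% were called higher and 12.2% lower. PPRC1, a coactivator of the PGC-1 family, had 1309 reads (100 CPM) in the siHNRNPM library and 1082 reads (54.4 CPM) in the control library (0.88, 0.761 to 0.996). ESRRA, an orphan nuclear receptor, had 723 and 824 reads (0.41), and NRF1 had 220 and 430 (-0.36, -0.60 to -0.13). Those that bind the ETS and YY1 motifs, GABPA (-0.08) and YY1 (-0.07), had intervals that spanned a ratio of 1.

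**Figure D5:**
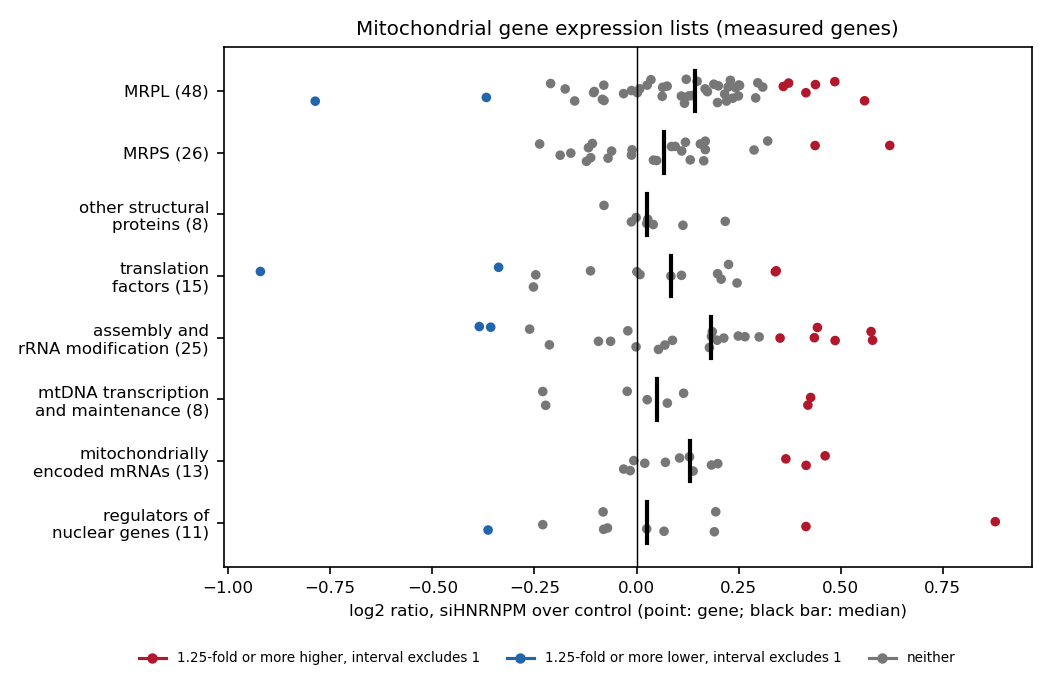
Log2 ratio, siHNRNPM over control, of the measured genes of each list, 1 point per gene, with black bars at the medians, red for genes called higher and blue for genes called lower. Medians run from 0.02 for the regulators to 0.18 for the assembly factors, with MRPL at 0.14 and MRPS at 0.07.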

How the data were processed

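RNA-seq was done on 2 RKO libraries, 1 per group, and groups came from the labels' treatment. The deposited values are whole-number read counts per gene symbol, not normalized by the authors. HISAT2 2.0.4 and GRCh38 are named without a role, per the submitters' processing notes. The counter, annotation, strand and treatment of multi-mapped reads are not given in the sources used here, so reads of overlapping genes and near-identical copies cannot be assigned with certainty. Every per-sample column was used.

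Counts were scaled over the whole table by TMM (edgeR 4.0.16, R 4.3.3). The log2 ratio set a count of 0 to 0.5, and its 95% interval was computed from the gene's reads in both libraries as an exact binomial (Clopper-Pearson) interval, with SciPy 1.17.1. Intervals and floors cover counting error only, not variation between cultures. They treat reads as independent, but PCR copies are not independent molecules, so the intervals may be too narrow even for counting error. With 1 library per group no test was run. The procedure was tested on simulated counts that held counting error alone. The planted changes were larger than the threshold used for calls, so that test covers neither variation between cultures nor changes near the threshold.

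Positions, transcript lengths and 3′ UTRs came from GENCODE 29 (GRCh38) and promoters from RefSeq (GRCh38.p14). Of the symbols, 45971 matched RefSeq by symbol, 1854 by synonym and 97 by GENCODE name, and 6339 matched none. A gene's copy means transcripts that GENCODE lists outside the primary assembly. Exon overlap counts bases shared with another gene of the table.

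The members and lists were chosen with earlier results of these data known. Named were HNRNPM, and in each direction the 8 MRPL and 6 MRPS genes whose intervals lay farthest from a ratio of 1. The 4 most and 4 least abundant of each subunit, the misplaced symbols, unmeasured members and up to 4 per other list (all of lists with 13 or fewer) could also be named. Alternatives covered scaling (total reads, upper quartile, DESeq2 1.42.0 size factors), CPM filters, thinning, call thresholds and subsets of members.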

Additional observations from a re-analysis of the deposited data

How the results depend on the processing

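Of 147 values recomputed under the alternatives, 117 stayed within their limits and 30 moved. For counts of calls the limit was a 1.5-fold change. For summed ratios and HNRNPM it was the value's own counting error. For medians and their difference it was the median counting error of single members, a wide limit. The MRPS median crossed 0 within that limit, so staying within it says little about the medians. Under 6 settings of scaling, filter and depth 0 of the members' calls were lost. Upper-quartile scaling, which moved the median of all measured features to 0.02 (-0.01 under TMM), raised the summed log2 ratios to 0.0890 (MRPL) and 0.0582 (MRPS) and added MRPL18, MRPL4, MRPL49 and MRPS18C to the calls, while 12.2% of all features were then called higher and 10.0% lower. Total-read scaling added MRPS18C, and thinning the control library added MRPL4 and MRPS18C. The MRPL median ran from 0.13 to 0.17 over all settings.

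Calls at 2-fold numbered 0 in each subunit and direction. At 1.5-fold 1 member was higher (0 MRPL, 1 MRPS) and 1 lower (1 MRPL), where 5.0% and 4.56% of all measured features were. By the interval alone 26 were higher (20 MRPL, 6 MRPS) and 8 lower (6 MRPL, 2 MRPS), where 22.0% and 26.1% of all measured features were. The 34 members with no pseudogene of their symbol gave 4 higher (3 MRPL, 1 MRPS), 1 lower (1 MRPL), summed log2 ratios of 0.0822 for MRPL and -0.0298 for MRPS, and an MRPS median of -0.06, so the MRPS sum and median lay on the other side of 0. The cause was not tested. Settings chosen after seeing the data were the removal of members with the 7-base sequence, which left 1 lower (1 MRPL) and 1 MRPS higher with an MRPL sum of 0.1074, the removal of members that share exons, the class of MRPS18A, and the removal of MRPL42, which gave 0.0838.

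No paired analysis was possible because each group has 1 library, which also leaves no replicate to leave out. Depth limits MRPL23, MRPS33, MRPL54, MRPS36, MRPL48 and MRPL1 most, whose intervals span more than 0.6 on the log2 scale.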
